A study of Rattus norvegicus with 16 samples.

Results

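The genes described here encode the subunits of the mitochondrial respiratory chain and of ATP synthase, measured in isolated rat pancreatic islets. They were taken by symbol: every probe set that names a single gene beginning with Nduf, Uqcr, Atp5, Cox4, Cox5, Cox6, Cox7 or Cox8, or Sdha, Sdhb, Sdhc, Sdhd or Cyc1. This gave 85 genes on 90 probe sets, of 10412 genes named by a single symbol on the array, and the probe set with the highest mean intensity stood for its gene. The genes were 34 of complex I, 4 of complex II, 8 of complex III, 14 of complex IV and 15 of ATP synthase (complex V), 75 in all, and 10 that the symbols bring in and that are not counted here as subunits: 5 complex I assembly factors, Ndufa4, Ndufa4l2, the supercomplex factor Cox7a2l, the ATP synthase inhibitor Atp5if1 and the pseudogene Cox6c-ps1.

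Islets were infected with an empty (null) adenovirus or with one encoding PPARγ, a ligand-activated nuclear receptor, at 50 viral particles per cell. After 32 h they were kept for 16 h in 0.004% DMSO (vehicle) or in 200 nM GW347845, a PPARγ agonist called the compound here. All 4 groups therefore carried adenovirus, and the labels give no uninfected islets, no promoter for the viral cDNA and no strain, sex or age of the rats. The comparisons used 14 arrays: 3 for each null virus group, with numbers 1, 3 and 4, and 4 for each PPARγ virus group. Another array stood in the table under number 2 of both null virus groups with identical values, and was left out.

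Complexes I to IV pass electrons from NADH and succinate to oxygen and, except complex II, pump protons across the inner mitochondrial membrane, and ATP synthase makes ATP from the returning flow. In pancreatic beta cells this ATP closes potassium channels and so couples glucose breakdown to insulin release. The subunits measured here are encoded in the nucleus. PPARγ is known for its control of lipid storage and fatty acid handling genes.

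The receptor's own probe set matched the labels. Pparg intensity was 25.6 to 51.4 in the 6 null virus arrays and 4593.4 to 6199.1 in the 8 PPARγ virus arrays. Fabp4, a fatty acid binding protein and PPARγ target, was 259.8 to 780.7 in PPARγ virus with compound and at most 68 elsewhere. Beta cell markers fitted the islet label, with Ins1 at 4626.9 to 7093.1 in all arrays, while summed muscle markers stayed between 98.3 and 157.9 and summed adipocyte markers between 29.5 and 52. The summed alpha cell markers on the array, Gcg and Ttr, 2 of 4 listed, were 2743.2 to 4667.4 in 10 arrays, but 491.8 and 222.8 in the number 2 arrays of PPARγ virus and 1309.6 and 1303.5 in its number 4 arrays. Gcg makes up most of this sum. Gcg and Ttr differed in sign in the combined comparison, at -1.14 ± 0.90 and 0.90 ± 0.85 on the log2 scale, and neither passed. Summed delta and PP cell markers (Sst, Hhex and Ppy) were low in the same 4 arrays, at 460, 266.5, 942.6 and 917.5, against 1297.9 to 4201.1 in the other 10. In bulk RNA, fewer cells of a type and less RNA per cell cannot be told apart.

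No respiratory chain or ATP synthase gene passed the test in any comparison. Of the 85 genes, 82 were bright enough to be tested. Cox6b2, at 0.4 to 5.5, Cox8b, at 1.1 to 3.9, and Ndufa4l2, at 17.2 to 46.5, were not. A linear model (limma) was fitted to all 10078 tested probe sets on the log2(intensity + 4.6) scale, and p-values were adjusted over all of them (Benjamini-Hochberg, threshold 0.05). Between PPARγ and null virus in vehicle 0 of the 82 genes passed, where 0.0397% of all probe sets did, and in compound 0 passed, where 0.705% did. For the compound 0 passed under null virus (0% of all) and 0 under PPARγ virus (0.0595% of all). Between the islets given both PPARγ virus and compound and those given neither (null virus with vehicle), called the combined comparison here, 0 passed, where 0.665% of all did. These comparisons share groups, so their values are given side by side and are not independent of each other. Nothing in the labels tells whether replicates came from separate islet preparations, so p-values measure the spread between these arrays, which may be technical.

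The fitted differences were small for most of these genes. Their intervals rest on the spread between these arrays, treated as independent. The 95% interval of the log2 difference lay within ±1 for 81 of the 82 genes in the combined comparison, and within ±0.5 for 58 of them. The median width from estimate to bound was 0.28. Across the 5 group comparisons the estimates ran from -0.83 to 0.43. The median over the 82 genes was -0.05 for the virus in vehicle, -0.08 for the virus in compound, 0.05 for the compound under null virus, 0.04 for the compound under PPARγ virus and -0.02 for the combined comparison. Over all tested probe sets the same medians were 0.00, -0.03, 0.00, -0.02 and -0.03.

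**Figure D1:**
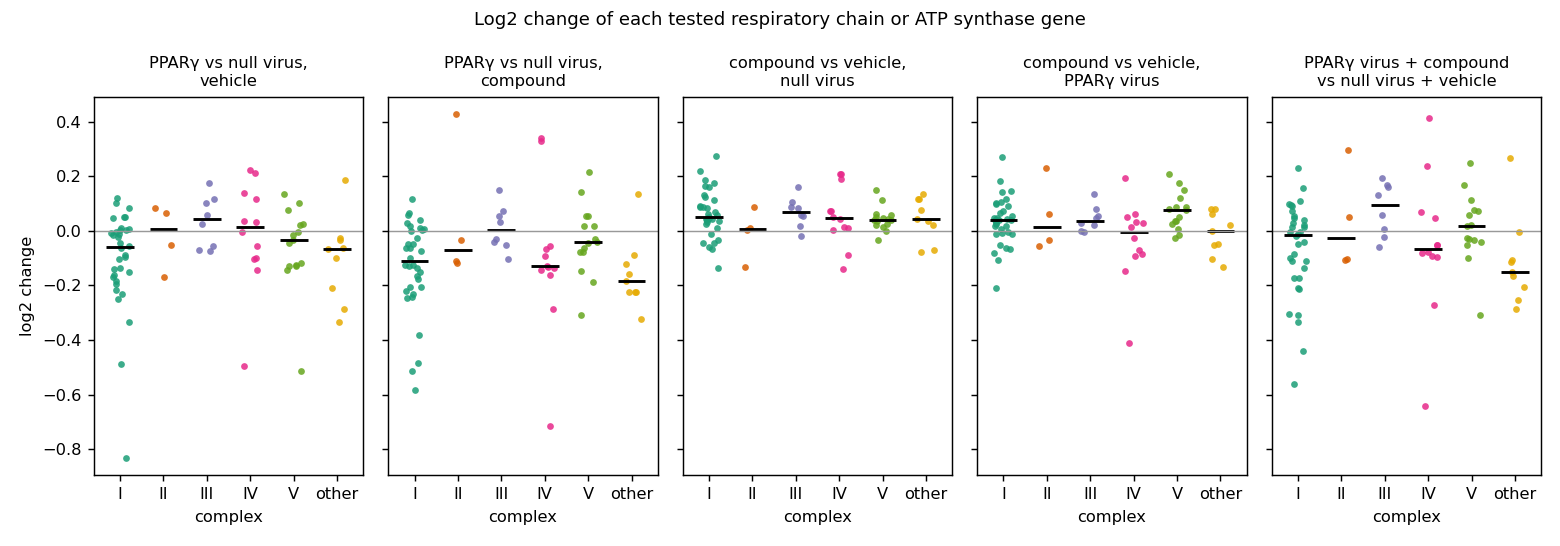
Log2 change of each of the 82 tested genes (points) by complex in the 5 group comparisons, with the median of each complex as a black bar; "other" holds assembly factors, Ndufa4, Cox7a2l, Atp5if1 and Cox6c-ps1. Most points lie close to 0, the lowest is Ndufa5 of complex I at -0.83 for the virus in vehicle, and complex IV runs from -0.71 for Cox6b1 to 0.34 for Cox4i1 for the virus in compound.

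At an unadjusted p under 0.05, more of these genes were lower than higher under PPARγ virus. In vehicle 1 of 82 (1.22%) was higher and 7 (8.54%) were lower, where 2.3% and 2.12% of all probe sets were. In compound 2 (2.44%) were higher and 8 (9.76%) lower, against 4.77% and 4.42% of all. In the combined comparison 1 was higher and 7 were lower, against 4.29% and 4.2%. For the compound the counts were 0 and 0 under null virus, where 0.943% of all probe sets reached that level, and 1 higher and 0 lower under PPARγ virus, against 1.37% and 1.56%. None of these counts takes the number of tests into account. The genes concerned were mainly accessory subunits of complex I, Cox6b1, Ndufaf5 and Atp5po on the lower side and Cox4i1 on the higher side. In compound Sdha was also higher, and Cox7b of complex IV was also lower, at -0.29 ± 0.12 without overlap. The number 2 arrays, used only under PPARγ virus, were the lowest arrays over these genes. Their median log2 deviation from each gene's own mean was -0.14 in both. Their part in these counts, and in those without regard to p below, was not tested. With any 1 array left out, the median difference over the 82 genes reached 0.01 for the virus in vehicle. In compound it reached -0.14 at the lowest. At the highest it was -0.03, without number 2 of PPARγ virus with compound. Over all tested probe sets the median in compound ran from -0.03 to -0.02 with any 1 array left out.

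Without regard to p, 29 of the 82 genes were above 0 for the virus in vehicle, 23 in compound and 35 in the combined comparison, against 50.1%, 44.7% and 44.7% of all tested probe sets. Groups that did not overlap were counted as well. For the virus in vehicle 2 genes (2.44%) were higher and 4 (4.88%) lower without overlap, against 2.45% and 2.17% of all probe sets. In compound 1 (1.22%) was higher and 9 (11.0%) were lower, against 4.56% and 5.26%. In the combined comparison the counts were 2 and 6 (2.44% and 7.32%), against 4.06% and 4.89%. For the compound they were 3 and 1 under null virus, against 2.08% and 2.53%, and 1 and 0 under PPARγ virus, against 0.645% and 1.15%.

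The proximal promoters of 4 of the genes named here are shown for their sequence. Each is given as the 250 bases before the annotated start on the gene's own strand (RefSeq, GRCr8). Whether these sequences bear on the differences was not tested. Capitals mark matches, on either strand, to the NRF1 motif GCGCATGCG or the ETS motif CCGGAAG. Both are bound by factors known for nuclear control of respiratory genes.
Cox4i1, chr19:65630133-65630382, plus strand: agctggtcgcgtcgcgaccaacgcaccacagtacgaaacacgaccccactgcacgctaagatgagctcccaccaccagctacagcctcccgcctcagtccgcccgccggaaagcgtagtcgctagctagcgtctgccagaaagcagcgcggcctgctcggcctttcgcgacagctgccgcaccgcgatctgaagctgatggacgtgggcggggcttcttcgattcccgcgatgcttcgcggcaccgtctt
Ndufa7, chr7:15311196-15311445, plus strand: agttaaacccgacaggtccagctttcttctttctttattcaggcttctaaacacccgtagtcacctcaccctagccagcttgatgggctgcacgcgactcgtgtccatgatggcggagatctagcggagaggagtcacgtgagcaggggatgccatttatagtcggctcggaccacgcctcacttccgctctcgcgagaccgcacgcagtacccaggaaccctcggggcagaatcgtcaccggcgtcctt
Atp5po, chr11:44657484-44657733, minus strand: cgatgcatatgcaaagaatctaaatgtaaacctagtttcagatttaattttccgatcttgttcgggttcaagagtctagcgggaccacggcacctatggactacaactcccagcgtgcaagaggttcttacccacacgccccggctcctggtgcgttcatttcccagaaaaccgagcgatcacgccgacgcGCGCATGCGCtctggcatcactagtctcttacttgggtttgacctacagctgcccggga
Uqcrc2, chr1:184598990-184599239, plus strand: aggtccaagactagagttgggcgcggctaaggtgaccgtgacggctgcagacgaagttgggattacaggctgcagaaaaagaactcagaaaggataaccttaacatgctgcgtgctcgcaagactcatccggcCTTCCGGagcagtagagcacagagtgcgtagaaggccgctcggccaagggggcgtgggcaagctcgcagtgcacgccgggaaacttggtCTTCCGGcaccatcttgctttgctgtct
Atp5po held the NRF1 motif on both strands, in overlap, between 59 and 50 bases before its start, and Uqcrc2 held the ETS motif on the opposite strand at 117 to 111 and at 28 to 22 bases before its start. Cox4i1 and Ndufa7 had no match in the bases shown.

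In windows of 300 bases around the start, 76 of the 85 genes had a RefSeq promoter entry, and these letters could be counted beside all 27457 promoters of the table. The NRF1 motif was in 7 of the 76 (9.21%, against 1.66% of all promoters), namely Atp5me, Atp5mg, Atp5po, Ndufa11, Ndufaf4, Ndufaf5 and Uqcrc1. The ETS motif was in 21 (27.6%, against 9.22%). Cox4i1 was among them with 2 matches, neither of them wholly within the bases shown above. AAGATGGC, the letters of the YY1 motif, was in 17 (22.4%, against 3.44%). TCAAGGTCA, the letters bound by oestrogen-related receptors, was in 2 (2.63%, against 0.412%). The direct repeat that PPAR and RXR bind as a pair, searched as AGGTCA, any 1 base and AGGTCA again, was in 0 of the 76 and in 0.0583% of all. These exact letters were in only 16 of the 27457 promoters, so 0 of 76 cannot show that PPAR sites are absent. Each motif was searched on both strands, with overlaps between motifs allowed. A match describes letters in a window and is not a bound site.

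Complex I, the NADH dehydrogenase, had 34 genes tested. Its 28 accessory subunits, which surround and stabilise the catalytic core, had a median log2 difference of -0.09 for the virus in vehicle and -0.13 in compound, and 6 of the 28 were above 0 in each. The 6 core subunits on the array, most of which hold the flavin or iron-sulfur clusters, had medians of 0.01 and -0.03. In the combined comparison the core subunits Ndufs1, Ndufs3 and Ndufs7 were at 0.06 ± 0.14 (SE), 0.07 ± 0.10 and 0.11 ± 0.16. Ndufs8, Ndufv1 and Ndufv2 were at -0.01 ± 0.11, 0.10 ± 0.12 and -0.13 ± 0.17. For the virus in vehicle Ndufv2 was the lowest core subunit, at -0.23 ± 0.17, beyond the accessory median. The difference between core and accessory subunits was not tested.

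Ndufa7, a small accessory subunit, was the complex I gene with the smallest p for the virus. Its intensity was 1046, 948.9 and 960.4 in null virus with vehicle and 990.1, 1107.5 and 952.5 in null virus with compound. Under PPARγ virus it was 743.7, 694.4, 604.4 and 768.8 with vehicle and 711, 838, 656.9 and 702.4 with compound. Each of the 8 PPARγ virus arrays was below each of the 6 null virus arrays. The log2 difference was -0.49 ± 0.11 (SE) in vehicle, with a 95% interval from -0.72 to -0.25, and -0.48 ± 0.11 in compound. The limma adjusted p was 0.227 in vehicle, 0.0678 in compound and 0.117 in the combined comparison, where the difference was -0.44. An exact two-sided permutation test gave p = 0.0571 in each of these, the smallest that 3 arrays against 4 allow, which the lack of overlap fixes.

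Ndufa5, another accessory subunit, had the widest difference in vehicle. It read 127.9, 113.8 and 120.8 in null virus with vehicle and 45.5, 61.3, 74.4 and 90 in PPARγ virus with vehicle. In compound it read 134.1, 102.9 and 115.6 under null virus and 64.4, 77.7, 80.6 and 103.4 under PPARγ virus. The vehicle groups did not overlap, while in compound the highest PPARγ virus array just passed the lowest null virus array. The log2 difference was -0.83 ± 0.20 in vehicle (limma adjusted p = 0.275) and -0.51 ± 0.20 in compound (adjusted p = 0.398).

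Ndufc2, a membrane arm subunit, stood apart mainly in compound. Its values in null virus were 1300.8, 1288.3 and 1710.1 with vehicle and 1621.4, 1777.5 and 1763.5 with compound. In PPARγ virus they were 877.5, 1366.2, 1080.2 and 1243.4 with vehicle and 1057.3, 1227.4, 1121.6 and 1183.2 with compound. The compound groups did not overlap and the vehicle groups did. The difference in compound was -0.58 ± 0.14 on the log2 scale (limma adjusted p = 0.0856), against -0.33 ± 0.14 in vehicle (adjusted p = 1.00). The interaction, which is the difference between these differences, was -0.25 ± 0.20 and did not pass (adjusted p = 1.00).

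Ndufb4, also of the membrane arm, had a smaller shift. It read 1224.8, 1144.8 and 1319.1 in null virus with vehicle and 869.4, 885.9, 1080.9 and 1080.1 in PPARγ virus with compound, without overlap. The other groups read 1158.8, 1260.4 and 1397.4 (null virus, compound) and 965.6, 914.8, 1164.6 and 1098.4 (PPARγ virus, vehicle). The log2 difference was -0.33 ± 0.12 in the combined comparison (limma adjusted p = 0.352) and -0.38 ± 0.12 for the virus in compound (adjusted p = 0.213). In PPARγ virus the numbers 1 and 2 were low and the numbers 3 and 4 high with either treatment.

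For the virus in compound the count of passing genes depended on single arrays. It was 1 in place of 0 without PPARγ virus with vehicle number 1 (Ndufc2, adjusted p = 0.0338), without number 3 of that group (Ndufa7, adjusted p = 0.0477) or without PPARγ virus with compound number 2 (Ndufa7, adjusted p = 0.0318). The combined count was 1 without that last array (Ndufa7, adjusted p = 0.04996). With both number 2 arrays of PPARγ virus left out, Ndufa7 was at -0.55 for the virus in compound (limma adjusted p = 0.0425); these were the arrays with the lowest alpha cell and delta and PP cell marker sums. Over 30 alternative settings Ndufa7 and Ndufc2 each passed in 4 for the virus in compound, and Ndufa7 in 2 for the combined comparison.

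**Figure D2:**
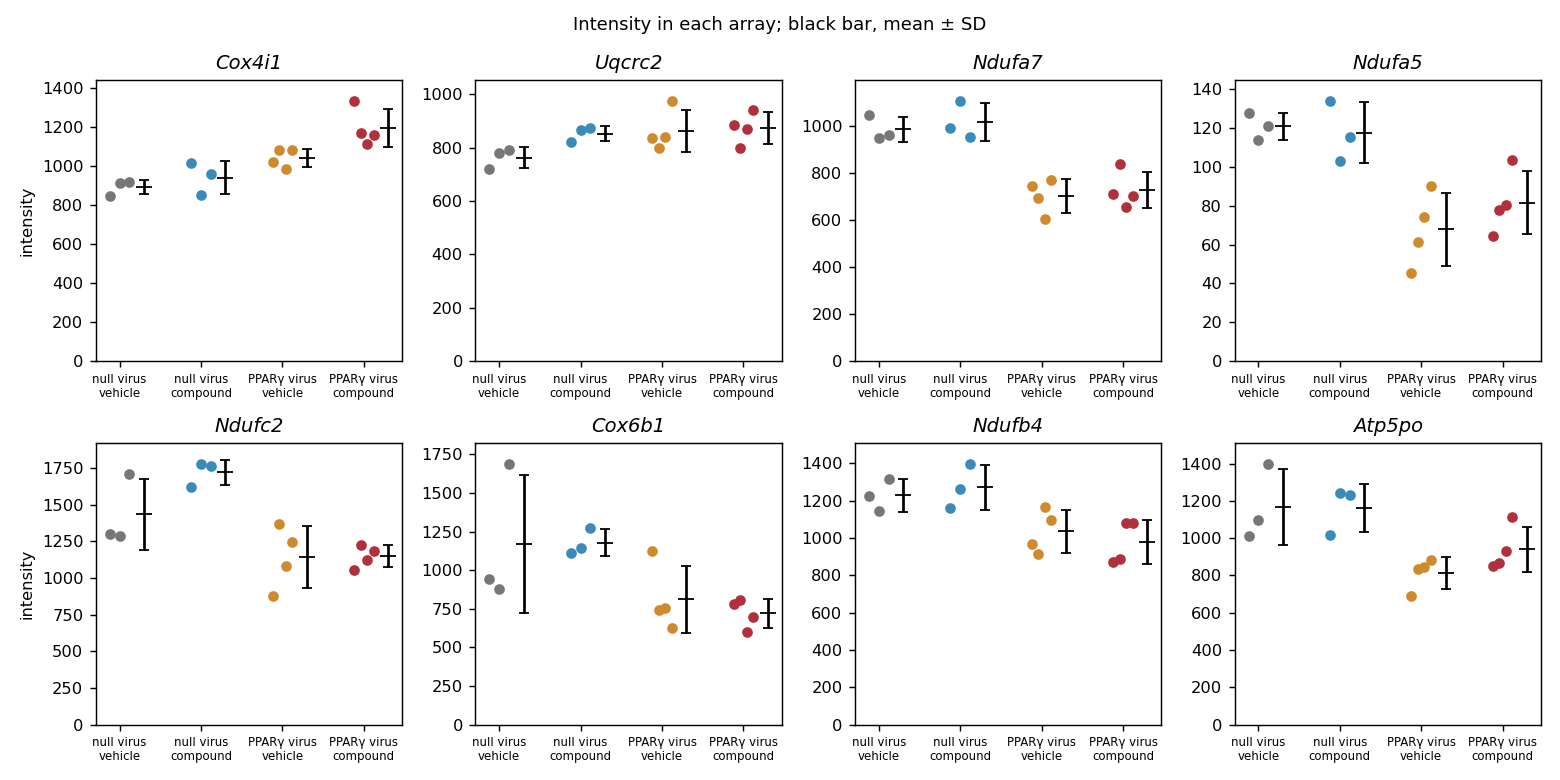
Intensity of 8 named genes in each of the 14 arrays (points, with the axis from 0) by group, with the group mean ± SD as a black bar. Ndufa7 is at most 838 in the PPARγ virus arrays and at least 948.9 in the null virus arrays, and Cox4i1 is at least 1111.3 in PPARγ virus with compound and at most 1082.3 elsewhere.

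The 5 complex I assembly factors, which build the complex and do not stay in it, had medians of -0.06 for the virus in vehicle and -0.22 in compound. Ndufaf5, a factor that modifies a core subunit, read 199.9, 202.3 and 226.9 in null virus with vehicle and 155.1, 167.9, 165.8 and 197.7 in PPARγ virus with vehicle, without overlap. Its log2 difference was -0.29 ± 0.12 (limma adjusted p = 1.00).

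Complex II, succinate dehydrogenase, links the citrate cycle to the chain, and all 4 of its genes were tested. Sdha, the flavoprotein that oxidises succinate, read 490.7, 529.2 and 555 in null virus with vehicle and 494.7, 535.1 and 412.1 with compound. In PPARγ virus it read 437.5, 653.2, 466.7 and 681.8 with vehicle and 510.7, 687.4, 576.1 and 853.3 with compound. The numbers 2 and 4 were above all null virus arrays with either treatment, number 3 only with compound, and number 1 with neither. The log2 difference for the virus in compound was 0.43 ± 0.19 (limma adjusted p = 0.487), and the combined one was 0.30 ± 0.19. The same PPARγ virus arrays, numbers 2 and 4, had the low alpha cell and delta and PP cell marker sums given above. The part of this in the Sdha values was not tested.

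The other complex II genes had combined log2 differences of -0.10 ± 0.15 for Sdhb, the iron-sulfur subunit, 0.05 ± 0.14 for Sdhc and -0.11 ± 0.12 for Sdhd, both membrane anchors. A second, dimmer probe set of Sdhd gave 0.06. None of the 4 passed in any comparison.

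Complex III, the cytochrome bc1 complex, had 8 genes, and 6 of them were above 0 in the combined comparison, with a median of 0.09. Uqcrc2, one of its core proteins, read 719, 779.3 and 791.1 in null virus with vehicle. It read 820.8, 865.1 and 872.6 in null virus with compound, 837.4, 799.3, 839.2 and 976.6 in PPARγ virus with vehicle, and 883.8, 799.8, 869.3 and 943.1 in PPARγ virus with compound. The null virus with vehicle arrays were thus below every other array, by a narrow margin in some. The log2 difference was 0.17 ± 0.09 for the virus in vehicle, 0.16 ± 0.10 for the compound under null virus and 0.19 ± 0.09 in the combined comparison (limma adjusted p = 1.00, 1.00 and 0.608). Uqcrc1, its partner core protein, was at 0.17 ± 0.11 and Cyc1, the cytochrome c1 subunit, at 0.13 ± 0.11 in the combined comparison.

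Complex IV, cytochrome c oxidase, held both the gene with the smallest combined p and the gene with the lowest combined estimate. Cox4i1, the ubiquitous form of its largest nuclear-encoded subunit, read 848.8, 910.5 and 917.2 in null virus with vehicle and 1013.2, 849.9 and 958.6 with compound. It read 1018.2, 1079.6, 985 and 1082.3 in PPARγ virus with vehicle and 1334.9, 1166.7, 1111.3 and 1157.4 with compound. The arrays with both virus and compound were above every other array. The combined log2 difference was 0.41 ± 0.09, a 1.33-fold ratio, with a 95% interval from 0.22 to 0.61 (limma adjusted p = 0.0613). It was 0.22 ± 0.09 for the virus in vehicle (adjusted p = 1.00) and 0.34 ± 0.09 in compound (adjusted p = 0.143). Under PPARγ virus the compound difference was 0.19 ± 0.08 (adjusted p = 1.00), and it was above 0 in each pair of same-number arrays, by 0.39, 0.11, 0.17 and 0.10. The exact two-sided permutation p of that difference was 0.0286, the smallest that 4 arrays against 4 allow. Both the signs of the pairs and this p follow from the lack of overlap, so they add nothing to it. Over 30 alternative settings the combined difference ran from 0.36 to 0.45, and it passed in 3 of them.

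Cox6b1, a subunit at the intermembrane side that joins the monomers of the oxidase, read 939.6, 881 and 1687.6 in null virus with vehicle and 1111.5, 1144.5 and 1275.7 with compound. In PPARγ virus it read 1124.3, 739, 754.4 and 628.2 with vehicle and 779.6, 807.9, 598 and 694.3 with compound. All PPARγ virus arrays with compound were below all null virus arrays. One null virus array with vehicle, number 4, was far above its group. The log2 difference was -0.71 ± 0.22 for the virus in compound (limma adjusted p = 0.207) and -0.64 ± 0.22 in the combined comparison (adjusted p = 0.328). The combined value was -0.35 without that array, and between -0.81 and -0.56 with any other array left out.

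Several oxidase subunits exist as a ubiquitous form and a form known from lung, heart or skeletal muscle. The ubiquitous Cox6a1 and Cox8a had combined log2 differences of -0.09 ± 0.12 and -0.08 ± 0.09. The tissue forms were dim and scattered: Cox4i2 was at 0.24 ± 0.35, Cox6a2 at 0.05 ± 0.30 and Cox7a1 at -0.27 ± 0.24. Cox4i2 read 101.4, 40.3, 69.6 and 36.1 in PPARγ virus with vehicle and 108.7, 38.2, 67.2 and 40 with compound, high in the numbers 1 and 3 of both. Cox6a2 read 76.3, 54.7, 61.5 and 124.9 and then 64.4, 69.7, 46.9 and 123, high in number 4 of both. Cox6b2 and Cox8b were too dim to test, and Cox7a2 is measured by a probe set that names several genes and was left out. Cox7a1 had the lowest estimate for the compound under PPARγ virus, -0.41 ± 0.22, with 69.1, 50.7, 63.7 and 50.1 in vehicle overlapping 23.7, 53.2, 40.4 and 61.9 in compound.

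**Figure D3:**
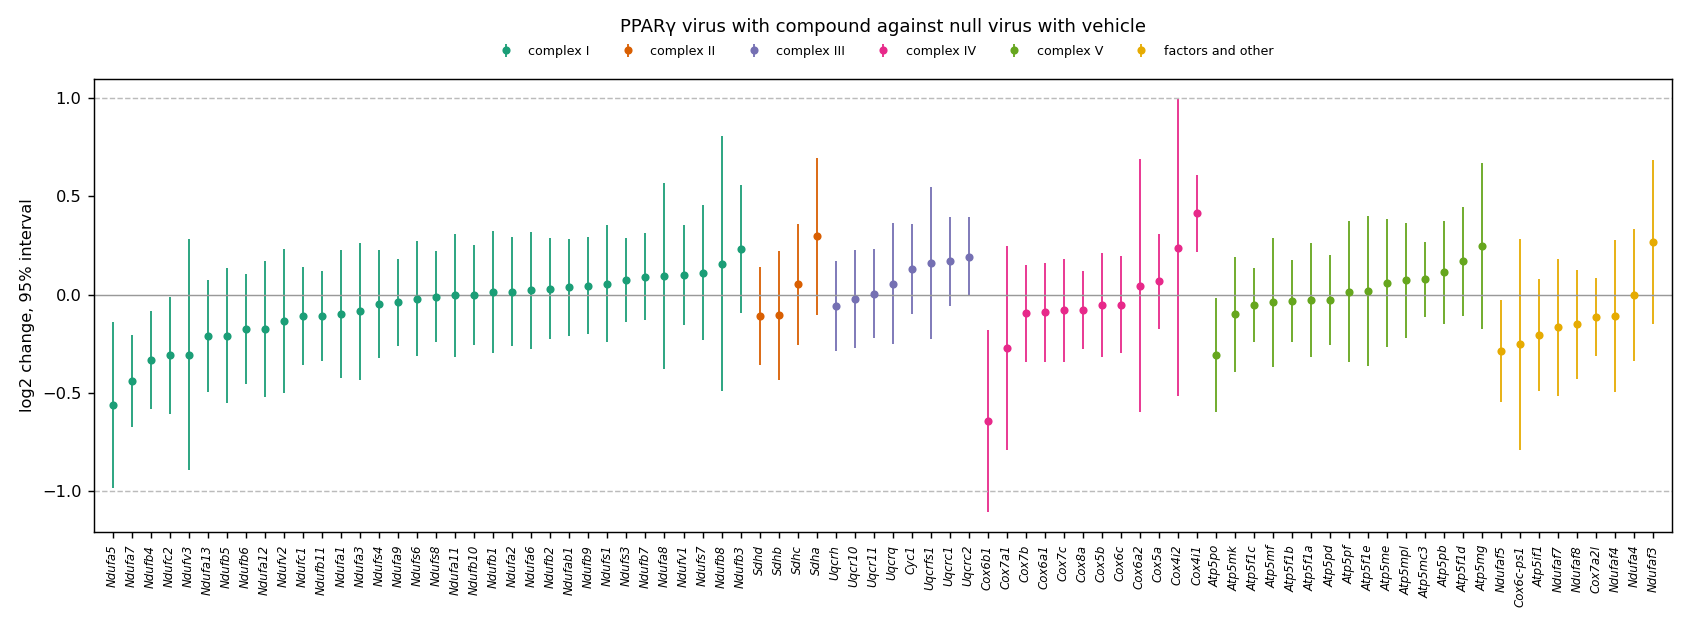
Log2 difference (point) and 95% interval (line) of each of the 82 tested genes between PPARγ virus with compound (4 arrays) and null virus with vehicle (3 arrays), sorted within each complex; dashed lines stand at ±1. Only the interval of Cox6b1 reaches past ±1, and Cox4i1 is the highest estimate at 0.41.

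ATP synthase had 15 genes, and 14 of them were above 0 for the compound under null virus and 13 under PPARγ virus, with medians of 0.04 and 0.08. Atp5po, the stalk subunit that confers oligomycin sensitivity, read 1011.8, 1097.4 and 1398.5 in null virus with vehicle and 688.5, 837, 842.9 and 883.5 in PPARγ virus with vehicle, without overlap. With compound it read 1015.9, 1244.3 and 1230.6 under null virus and 849.4, 869.2, 932 and 1111.8 under PPARγ virus, with overlap. The log2 difference was -0.51 ± 0.14 in vehicle (limma adjusted p = 0.407) and -0.31 ± 0.14 in the combined comparison (adjusted p = 0.562). The vehicle difference passed in 1 of 30 alternative settings. Of the catalytic head, Atp5f1a was at -0.12 ± 0.14 and Atp5f1b at -0.02 ± 0.10 for the virus in vehicle. Atp5me had 2 tested probe sets that disagreed, one at 0.06 in the combined comparison and a dim one, with a mean intensity of 40.2, at -0.61.

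Estimates for the compound alone were small and mostly above 0. Under null virus 68 of the 82 genes were above 0, where 50% of all tested probe sets were, and under PPARγ virus 55 were, where 45% were. With any 1 array left out, the median over the 82 genes ran from -0.002 to 0.12 under null virus. Under PPARγ virus it ran from -0.004 to 0.08. The estimates under null virus ran from -0.14 for Ndufb11 and Cox7a1 to 0.27 for Ndufc2. Cox5a, at 79.6, 78.5 and 81.3 with compound and 69.5, 73.8 and 62.3 with vehicle, was at 0.21 ± 0.12. Another probe set, which names Cox5a together with a further gene, was left out. Arrays with the same virus and number deviated together and were therefore also compared as pairs. In the 3 null virus pairs 52, 71 and 24 of the 82 genes were higher with compound, so pair number 4 went the other way. In the 4 PPARγ virus pairs 55, 34, 54 and 43 were. In null virus pair number 3 the compound array had the highest ratio of 3' to 5' signal of Gapdh, 18.9, a measure given below. With the pairs as a block in the limma fit, 0 of the 82 genes passed for the compound under either virus, where 0 and 40 of all 10078 probe sets passed. The interaction of virus and compound had 0 of 82 genes past the threshold and 0 at an unadjusted p under 0.05, where 0% and 1.42% of all probe sets were. Its estimates were above 0 for 34 of the 82 genes, where 46.3% of all were, with a median of -0.03 and with Sdha at 0.36 ± 0.26 and Ndufb1 at -0.32 ± 0.21 at the ends of the named genes.

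The genes varied together between arrays of the same group. For each array, the deviation of each gene from its own mean over the 14 arrays was taken on the log2 scale, and the median over the 82 genes was -0.05, -0.06 and 0.15 in null virus with vehicle (numbers 1, 3 and 4) and -0.00, 0.11 and 0.09 with compound. In PPARγ virus it was -0.09, -0.14, -0.06 and 0.08 with vehicle and -0.03, -0.14, -0.00 and 0.12 with compound. The number 4 arrays were the highest in 3 of the 4 groups, and the number 2 arrays, which were used only under PPARγ virus, the lowest in both of theirs. Over all tested probe sets the same medians stayed between -0.03 and 0.04. The pooled SD within groups was 0.098.

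**Figure D4:**
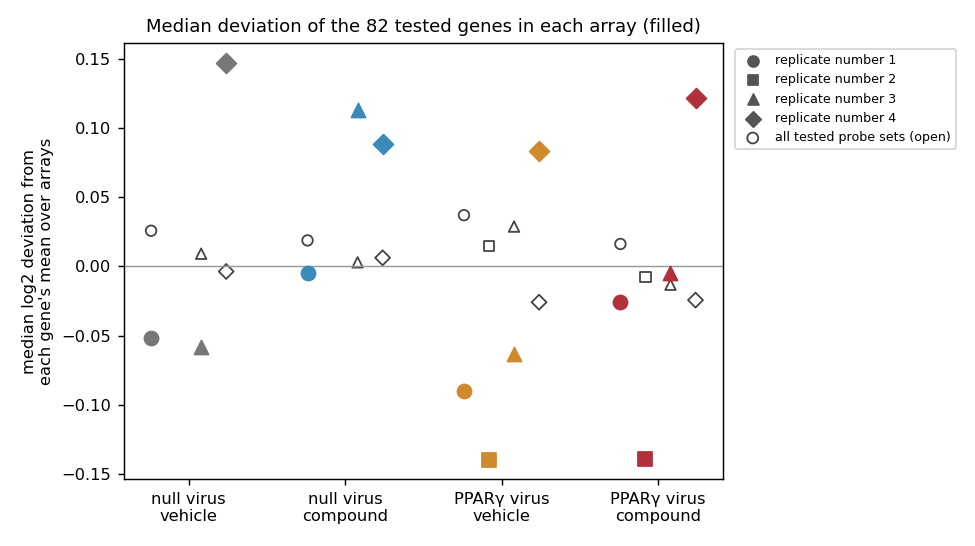
Median log2 deviation from each gene's mean over the 14 arrays, for the 82 genes (filled) and for all tested probe sets (open), by group, with the shape giving the replicate number. Diamonds (number 4) reach 0.15 and squares (number 2) -0.14, while the open symbols stay between -0.03 and 0.04.

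Gene by gene, number 4 was above the mean of numbers 1 and 3 for 69 of the 82 genes in null virus with vehicle (84.1%), 48 in null virus with compound (58.5%), 69 in PPARγ virus with vehicle (84.1%) and 63 in PPARγ virus with compound (76.8%). Over all tested probe sets these shares were 47.4%, 50.4%, 44.0% and 47.0%. In all 4 groups it was above for 27 of the 82 genes (32.9%), against 10.4% of all probe sets, and below for 1, Ndufa9, a complex I accessory subunit, against 14.02%. This comparison was chosen after the values were seen and has no test. With the 4 number 4 arrays left out of the fit, 0 of the 82 genes passed in any of the 6 comparisons. The labels say nothing of what a number marks. The ratio of 3' to 5' signal of Gapdh, a sign of RNA integrity, was 8.36 to 18.9 over the arrays, highest in null virus with compound number 3, and that of actin 7.58 to 14.9. Their part in the shift was not tested.

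Other mitochondrial genes were read beside the chain. Of 15 citrate cycle genes 0 passed in any comparison, with a combined median of 0.00, and of 71 mitochondrial ribosomal protein genes 0 passed, with a combined median of 0.03. Carriers of ATP and phosphate, porins and Ucp2 had 0 of 7 passing, oxidase and other assembly factors 0 of 12, and 6 tested regulators of mitochondrial genes 0. Mitochondrial fatty acid oxidation, whose electrons enter the same chain, was the list with calls. In the combined comparison 5 of its 17 genes rose and 0 fell, where 0.605% and 0.0595% of all probe sets did, with a list median of 0.42. The genes were Acadl, Acadvl and Acaa2, enzymes of the oxidation cycle, Decr1, which handles unsaturated chains, and Etfdh, which passes the electrons on to ubiquinone. Decr1 was at 0.79 ± 0.12 (limma adjusted p = 0.00384), Acadvl at 0.91 ± 0.15 (adjusted p = 0.00791) and Etfdh at 0.85 ± 0.18 (adjusted p = 0.0401). Etfdh read 56, 60.1 and 63.9 in null virus with vehicle and 88.4, 102.2, 147.2 and 117.6 in PPARγ virus with compound. For the virus in compound 3 of the 17 rose, Acadvl, Acaa2 and Decr1, and 0 fell, where 0.635% and 0.0695% of all probe sets did. The combined count was 1 without null virus with vehicle number 1, 2 without its number 3, and 3 without its number 4 or without PPARγ virus with compound number 3 or 4. The count for the virus in compound was 1 without null virus with compound number 3 or 4. With all 4 number 4 arrays left out these counts were 1 and 0. The count for the virus in compound was 5 with all 16 columns, with the doubly labelled array kept as null virus with compound, and with the replicate number as a block over all groups. The combined count was 3 with array medians made equal and with only the groups compared in the fit. For the compound under PPARγ virus 0 of the 17 passed, where 0.0595% of all probe sets did, and 2 (Acaa2 and Decr1) passed with same-number arrays as pairs. Whether the 2 gene groups differ in response was not tested.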

How the data were processed

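Total RNA of rat islets was hybridised to a rat oligonucleotide array. The deposited values are intensities, 1 per probe set (15923); the authors had scaled them, as the mean after trimming 2% at each end was 150.03 in every column. Summarisation software is not given in the sources used here, nor is a genome build. An array gives no depth; the number of arrays limits the precision.

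Of 16 columns, 2 held identical values under conflicting labels and were left out; other pairs were equal in at most 0.936% of probe sets. Values were used as log2(value + 4.6), the 10th percentile of positive values, so fold changes of dim genes are understated. Probe sets above 39.3 (the 40th percentile) in at least 4 arrays were tested, without 57 controls. Limma 3.58.1 in R 4.3.3 was fitted to a mean per group, with a trend on mean intensity, and checked on simulated data. The simulation had independent noise and planted changes larger than any estimate for these genes, so recovery of changes of their size was not checked. Single genes were also given an exact two-sided permutation test over arrays. Figures used Python 3.11.15 and matplotlib 3.10.9. Probe sets naming several genes, 7 among those matching the symbols, were left out.

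Deviations from the group mean correlated between same-number arrays of 1 virus in 7 of 7 pairs of vehicle and compound (r across probe sets 0.445 to 0.702). On this evidence from the data alone they were taken as pairs, in the counts by pair and in an alternative fit with a block. The main fit had no block, so its SEs, intervals and p-values for the compound are unpaired. Across viruses r was -0.139 to 0.433 and above 0.1 in 6 of 12 pairs.

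The genes, lists and rules were chosen with earlier results of these data known. Named were the 3 highest and 3 lowest by p in each comparison (2 and 2 for the interaction), complex II, Cyc1, the complex IV isoforms, members of other lists that passed, Pparg and Fabp4; Ndufaf5, further subunits of complexes I and V, Ndufa9 and the second probe set of Atp5me were added after their values were seen. Alternatives covered normalization, filter, pseudocount, variance model, samples, replicate block and leaving out each array.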

Additional observations from a re-analysis of the deposited data

Results flagged for a closer look

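Among the named genes, 50 groups of 4 arrays were checked for an array far from the other 3, and 3 stood apart, where chance gives about 1 in 20. Ndufb1, a complex I subunit, was 523.2 in PPARγ virus with compound number 2, against 689.7 in the nearest array. Ndufb11, another complex I subunit, was 874.5 in PPARγ virus with vehicle number 4, against 686.6 in the nearest, and 677 in PPARγ virus with compound number 2, against 775.7 in the nearest.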

How the results depend on the processing

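The median over the genes moved by less than the pooled SD between arrays under every alternative tried in the 6 comparisons, and the median of all tested probe sets shifted by less than 0.1. That SD, 0.098, is larger than each median over the genes, so it does not settle their sign. With 1 array left out these medians ran from -0.10 to 0.01 for the virus in vehicle and -0.14 to -0.03 in compound. They ran from -0.002 to 0.12 for the compound under null virus and -0.004 to 0.08 under PPARγ virus. The combined median ran from -0.07 to 0.05 and that of the interaction from -0.09 to 0.03. Only the virus in compound kept its sign throughout. Counts of genes past the threshold, 0 in the fit as reported, moved under some alternatives. With the replicate number as a block over all groups (replicate block), 1 gene passed for the virus in vehicle (Atp5po, limma adjusted p = 0.0297), 2 for the virus in compound (Ndufa7, 0.0296, and Ndufc2, 0.00503) and 2 in the combined comparison (Cox4i1 at 0.41, 0.0382, and Ndufa7 at -0.47, 0.0475). Across viruses 6 of 12 same-number pairs correlated above 0.1, all 4 of number 1 among them (0.299 to 0.433), so pairing there is partial. The block within each virus changed no count for the compound or the interaction, and it cannot estimate the virus. With only the groups compared, 2 passed for the virus in compound (Ndufc2 and Cox6b1). With all 16 columns, 1 passed there (Ndufc2) and 1 in the combined comparison (Cox4i1). With the doubly labelled array kept as null virus with compound, 1 passed in the combined comparison (Cox4i1, limma adjusted p = 0.0472). With both PPARγ virus number 2 arrays left out, an alternative added after seeing the data, 1 passed for the virus in compound (Ndufa7). Leaving out 1 array at a time gave 0 to 1 for the virus in compound and for the combined comparison, and 0 in the others. With the 4 number 4 arrays left out, also added later, Sdha for the compound under null virus turned to 0.014 and Cox6a2 in the combined comparison to -0.19. Without 1 array the combined values ran from -0.061 to 0.14 for Sdhc, -0.20 to 0.23 for Cox6a2 and -0.045 to 0.42 for Cox4i2, so their direction is not settled. Dim genes have the widest intervals.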
